A study of Mus musculus with 9 samples.

Results

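The transcripts of the mouse mitochondrial genome were taken as all genes whose symbol begins with mt-, that is 13 mRNA genes, 2 rRNA genes and 22 tRNA genes of chrM. All 37 were found by their Ensembl identifiers in every count table, among 46078 genes listed for the cultured cells and 38293 listed for muscle tissue. The study compared histone lactylation with gene expression, and its RNA-seq covered the gastrocnemius muscle (GAS) and primary muscle cells in culture, all from C57BL/6 mice. GAS was represented by 3 libraries made from muscle mRNA, which the methods describe as coming from female mice aged 8 to 12 weeks. Control myoblasts (MB, proliferating precursor cells kept in growth medium), myotubes (MT, the fused cells formed after 3 days in differentiation medium) and lactate-treated MB were represented by 2 libraries each, made by Smart-seq2, which amplifies full-length cDNA from a small amount of total RNA. Lactate-treated MB received 10 mM sodium-L-lactate, and the control cells received the PBS in which it was dissolved. The labels name the libraries of a group as biological replicates, without stating whether the cultures came from separate animals.

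Mitochondrial DNA is a small circle that is copied out from both strands into long precursor RNAs, which are cut at the tRNAs that punctuate the genes. Its mRNAs encode core subunits of respiratory complexes I, III, IV and V, its rRNAs form the mitochondrial ribosome, and its tRNAs translate these few mRNAs. All other subunits, and the proteins that transcribe and process mitochondrial RNA, are encoded in the nucleus, and oxidative tissues such as muscle are rich in mitochondrial transcripts.

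Neighbouring genes of chrM share bases, and a long stretch of it also has a copy in the nuclear genome, so that the sequences bear on what each count means. In the GENCODE annotation of GRCm38, the assembly called mm10 in the submitters' notes, mt-Atp8 and mt-Atp6 share 43 bases (chrM:7927-7969), mt-Nd4l and mt-Nd4 share 7, and mt-Nd5 and mt-Nd6, which lie on opposite strands, share 14. These overlaps are shown in capitals with their flanks, read on the plus strand, because a read within them lies on bases of both genes. For mt-Nd5 and mt-Nd6 the strand of a read could tell the genes apart, but the strand setting is not given in the sources used here.
mt-Atp8 and mt-Atp6, chrM:7915-7981: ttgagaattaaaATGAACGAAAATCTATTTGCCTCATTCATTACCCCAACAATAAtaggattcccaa
mt-Nd4l and mt-Nd4, chrM:10155-10185: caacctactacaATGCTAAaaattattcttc
mt-Nd5 and mt-Nd6, chrM:13540-13577: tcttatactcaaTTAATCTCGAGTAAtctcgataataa

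The nuclear copy lies on the minus strand of chromosome 1 (chr1:24611535-24616197) and is annotated as 7 pseudogenes, which match chrM between positions 6390 and 11042. Over 4140 aligned bases they differ from the mitochondrial genes at 2 positions, A1066T in mt-Co1 and T3C in mt-Nd3, where the mitochondrial base stands first and positions count from the start of the gene. The mRNAs mt-Co2, mt-Atp8, mt-Atp6, mt-Co3, mt-Nd3 and mt-Nd4l lie wholly within this copied stretch. The matching pseudogenes are Gm28661 for mt-Co2, Gm10925 for mt-Atp6, Gm28437 for mt-Co3, Gm28438 for mt-Nd3 and Gm10222 for mt-Nd4l. No annotated copy covers mt-Atp8, which corresponds to a gap of 233 bases between Gm10925 and Gm28661. Of the genes at the edges, mt-Co1 is covered over 483 of 1545 bases (Gm29216) and mt-Nd4 over 876 of 1378 bases (Gm28439). The pair of mt-Nd4l and Gm10222 is shown in full, because all 294 aligned bases are the same and a read from one cannot be told from a read of the other.
mt-Nd4l, chrM:9877-10170, plus strand: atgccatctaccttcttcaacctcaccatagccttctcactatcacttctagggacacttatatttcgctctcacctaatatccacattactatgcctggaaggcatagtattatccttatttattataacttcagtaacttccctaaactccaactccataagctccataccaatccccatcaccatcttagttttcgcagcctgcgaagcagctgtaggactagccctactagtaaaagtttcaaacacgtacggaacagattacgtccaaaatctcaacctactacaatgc
Gm10222, chr1:24612407-24612700, minus strand: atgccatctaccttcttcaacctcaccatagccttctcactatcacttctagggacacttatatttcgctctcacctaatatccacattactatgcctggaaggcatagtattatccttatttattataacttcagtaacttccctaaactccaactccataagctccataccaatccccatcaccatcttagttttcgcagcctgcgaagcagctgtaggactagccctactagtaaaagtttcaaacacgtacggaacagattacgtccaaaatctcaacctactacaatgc

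The libraries held 19307793 to 19941574 counts in GAS and 5198247 to 10839516 in the cultured cells, so that 3 counts correspond to 0.150 to 0.155 CPM (counts scaled to an equal library total) in GAS and to 0.277 to 0.577 CPM in culture. Myh4, the fast myosin heavy chain of adult muscle, was at 61014 to 67919 CPM in GAS and at most 158 CPM in culture. Myog, a myogenic factor of differentiating cells, was at 916 and 1026 CPM in MT and at most 77.3 CPM elsewhere. Pax7, a factor of muscle precursors, was at 11.9 to 33.3 CPM in the 4 MB libraries and at most 2.49 CPM elsewhere. These followed the labels, but not every marker did. Of the other myoblast markers, Myod1 was highest in the MB libraries. Des, by contrast, was at 239 to 828 CPM there, against 1697 and 2903 CPM in MT and 2325 to 2471 CPM in GAS. Myf5 was at 26.5 CPM in MT replicate 1, within its range of 25.1 to 33.8 CPM in the MB libraries. Of the other myotube markers, Myh3 and Actn2 were highest in MT. Ckm went the other way, at 39.1 and 105 CPM in MT against 22736 to 24427 CPM in GAS. MT replicate 1 stood apart, with 28599 genes detected against 15548 to 18156 in the other libraries. It had 16764 CPM on the 3 fibroblast markers, of which Col1a1 alone held 16251. MT replicate 2 had 1876 CPM on them and the MB libraries 0.539 to 2.34 CPM. The marker sums of endothelium, leukocytes, adipocytes and Schwann cells were 11.8, 12.9, 4.24 and 4.24 CPM in MT replicate 1. In MT replicate 2 they were 0, 1.02, 0 and 0.891 CPM. Replicate 1 of control MB and of lactate-treated MB carried 9.20% and 13.8% of their counts on CT010467.1, a nuclear gene model, where the replicate 2 libraries had 0.385% and 0.447%.

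GAS devoted a far larger share of its counts to the mitochondrial mRNAs than any culture did. The 13 mRNAs took 9.98%, 10.3% and 10.4% of counts in the 3 GAS libraries, 1.35% and 1.77% in MT replicates 1 and 2, 0.257% and 1.48% in MB replicates 1 and 2, and 0.245% and 1.09% in lactate-treated MB replicates 1 and 2. The lowest GAS value thus exceeded the highest value in culture, and the 3 GAS libraries lay close together. The mRNAs outside the copied stretch alone took 7.83% to 8.25% in GAS and 0.244% to 1.77% in culture. GAS and the cultured cells differed in library protocol and in the set of genes counted. Tissue, protocol and counting therefore cannot be told apart, and no test was made between GAS and culture. Fewer mitochondria-rich cells and less mitochondrial RNA per cell cannot be told apart in such bulk samples either.

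The 2 rRNAs ran the other way. They took 0.200%, 0.190% and 0.180% of counts in GAS, 0.518% and 2.40% in MT, 0.923% and 1.63% in MB, and 1.90% and 1.38% in lactate-treated MB. All 6 cultured libraries were therefore above the 3 GAS libraries, and the ratio of mRNA to rRNA counts was 49.8 to 58.1 in GAS against 0.129 to 2.61 in culture. The 22 tRNA genes together held 804 to 1177 counts per GAS library and 126 to 743 per cultured library, at most 0.00685% of a library.

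**Figure D1:**
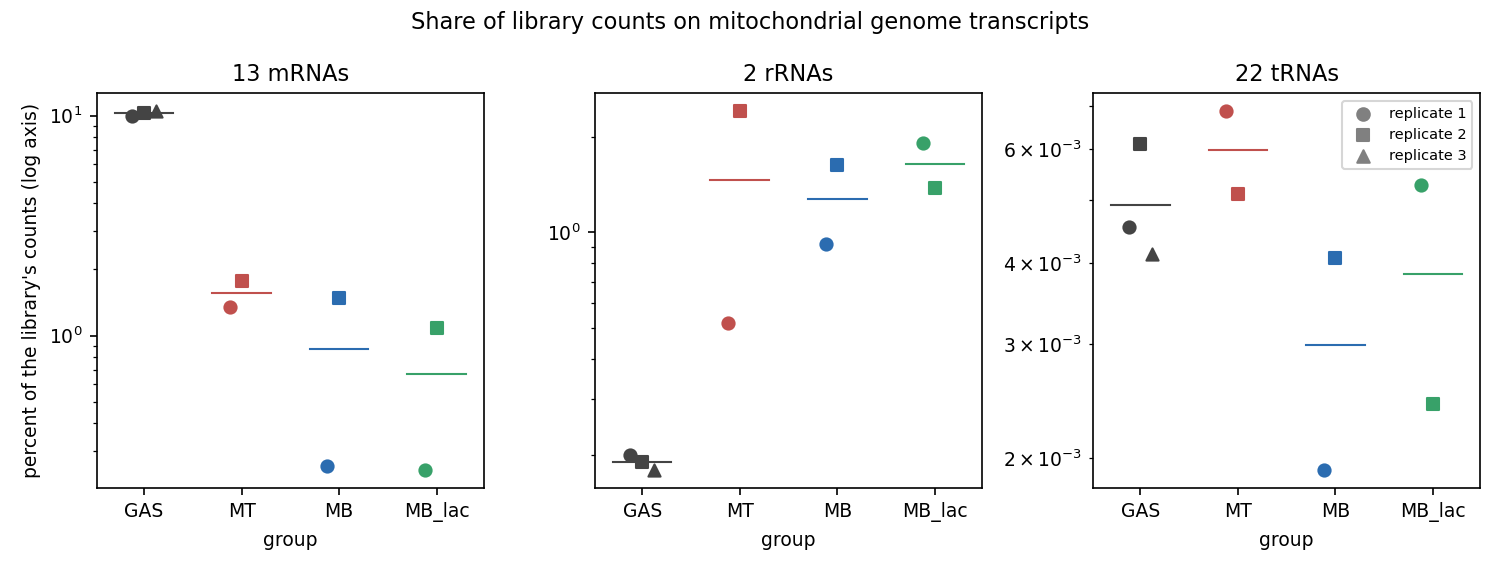
Percent of each library's counts (log axes) on the 13 mRNAs, 2 rRNAs and 22 tRNAs of the mitochondrial genome, by group, with 1 point per library, marker shapes for replicate numbers and a line at the group mean. The GAS libraries sit between 9.98% and 10.4% for mRNA, above all cultured libraries, and between 0.180% and 0.200% for rRNA, below all of them.

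Within cultured cells, MT and MB libraries overlapped in the share of mitochondrial mRNA. The mean share was 1.56% in MT and 0.869% ± 0.866 (SD, n = 2) in MB. Taken as the difference of the mean log2 shares, which weighs the low share of MB replicate 1 more heavily than these means do, MT was 1.33 above MB (two-sided exact permutation test p = 0.667, where 2 against 2 libraries allow no p below 0.333). Between libraries with the same replicate number the log2 ratio was 2.40 for number 1 and 0.26 for number 2. MB replicate 1 decided the size of this difference, which was 0.06 without it and 2.59 without MB replicate 2. The rRNA share had no settled direction, since its mean was 1.46% in MT and 1.28% in MB whereas the mean log2 share was lower in MT by a difference of -0.14 (exact permutation p = 1), with a ratio of -0.83 for number 1 and 0.56 for number 2, and the difference was 0.97 without MT replicate 1 and 0.27 without MB replicate 2.

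Lactate-treated and control MB also overlapped. The mean log2 share of mRNA differed by -0.26 and that of rRNA by 0.40 (exact permutation p = 0.667 for each), and the within-number ratios for mRNA were -0.07 and -0.45. The mRNA difference was 0.82 without lactate-treated replicate 1 and 1.01 without MB replicate 2. The distance between replicates was larger than that between treatments: the 7 mRNAs outside the copied stretch were 2.07-fold to 10.7-fold higher in replicate 2 than in replicate 1 of control MB, and 2.49-fold to 7.61-fold higher in replicate 2 of lactate-treated MB. In MT the same ratios ran from 0.880 to 2.44.

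Base composition and the share of CT010467.1 moved with these replicate differences. The count-weighted mean GC content of all nuclear genes reached 52.0% and 52.1% in replicate 1 of control and lactate-treated MB. In replicate 2 it was 49.4% and 49.5%. CT010467.1 is among these genes, so that its share also enters this mean. The mitochondrial mRNAs have 31.9% to 41.1% GC, against a median of 48.7% for nuclear protein-coding genes. Leaving CT010467.1 and Gm26917, another nuclear gene model with a high share in replicate 1, out of the totals gave mRNA shares of 0.288% and 1.49% in MB and 0.291% and 1.09% in lactate-treated MB. The part of base composition in the replicate differences was not tested.

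The genes within the copied stretch had few counts in all 6 cultured libraries. The 6 mRNAs of the stretch made up 21.0% to 21.6% of mitochondrial mRNA counts in GAS, 0.206% and 0.151% in MT, 0.343% and 0.172% in MB, and 0.566% and 0.170% in lactate-treated MB. In absolute terms the 6 genes summed to 427014 to 428999 counts per GAS library and to 79 to 302 counts per cultured library. The drop followed the position of the genes: in every cultured library each of the 6 had a lower count per kb than each of the 7 mRNAs outside the stretch. The median density outside exceeded that inside by 28.3-fold to 102-fold in culture and by 1.30-fold to 1.38-fold in GAS, where all 6 were above mt-Nd6.

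**Figure D2:**
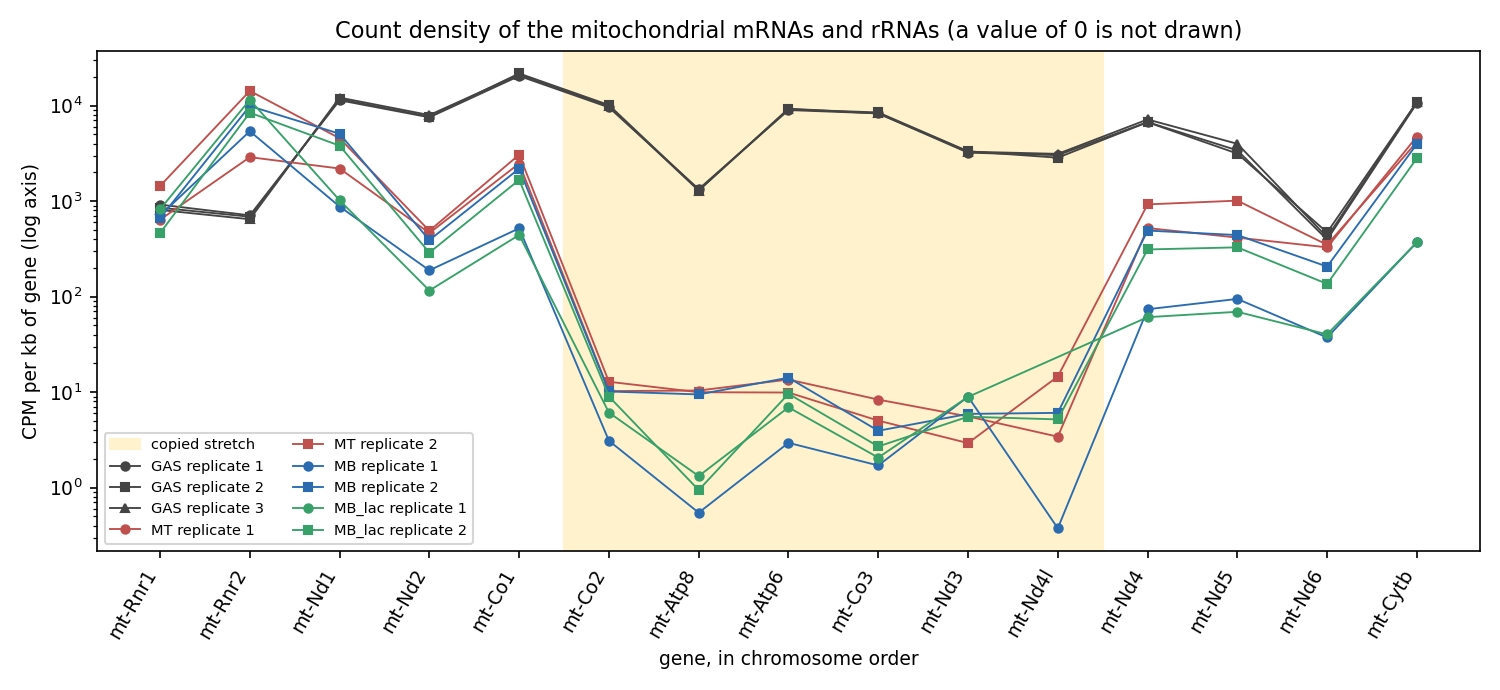
CPM per kb of gene (log axis) of the 13 mRNAs and 2 rRNAs in chromosome order, 1 line per library, with the genes wholly inside the copied stretch shaded and 1 value of 0, that of mt-Nd4l in lactate-treated MB replicate 1, not drawn. In the 6 cultured libraries each shaded gene lies below each mRNA outside the shading. In the 3 GAS libraries all 6 shaded genes lie above mt-Nd6, although mt-Atp8 has only 0.106 to 0.117 of the density of mt-Nd1.

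The pseudogenes had few counts in culture too. Their 7 gene models and the other, less alike copies together had 648 and 191 counts in MT, 53 and 239 in MB and 66 and 106 in lactate-treated MB, and with these added the stretch took 0.258% to 0.877% of the mRNA counts. In single genes, Gm28437 had 249 counts in MT replicate 1 where mt-Co3 had 71, and Gm10925 had 111 where mt-Atp6 had 100. The GAS tables list only Gm10222 of the 7, with 27714, 26283 and 29954 counts, more than the 17982, 16374 and 18094 counts of mt-Nd4l in the same libraries. How reads that fit more than 1 place were counted is not given in the sources used here, and its part in the low counts was not tested. The values of these 6 mRNAs in cultured cells are therefore uncertain as levels.

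Complex I, the NADH dehydrogenase that starts the respiratory chain, has 7 mitochondrial subunits, of which mt-Nd1 was the most abundant in culture. mt-Nd1 was at 10908, 11211 and 11632 CPM in GAS, at 2103 and 4361 CPM in MT, 840 and 4864 CPM in MB and 978 and 3648 CPM in lactate-treated MB. Both MT values lay between the MB values. mt-Nd2 was at 7844, 7980 and 8280 CPM in GAS, 481 and 508 CPM in MT, 196 and 406 CPM in MB, and 120 and 300 CPM in lactate-treated MB. Both genes encode membrane subunits of the same arm and lie side by side on chrM, yet per kb mt-Nd2 had 0.656 to 0.663 of the mt-Nd1 counts in GAS and 0.0758 to 0.215 in culture.

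mt-Nd4 was at 9282, 9255 and 9891 CPM in GAS, 721 and 1275 CPM in MT, 102 and 678 CPM in MB, and 84.0 and 430 CPM in lactate-treated MB. mt-Nd5 was at 6212, 5746 and 7279 CPM in GAS, 758 and 1848 CPM in MT, 173 and 806 CPM in MB, and 127 and 599 CPM in lactate-treated MB. Both encode proton-pumping subunits, and for mt-Nd4 both MT libraries were above both MB libraries, whereas for mt-Nd5 MT replicate 1 lay below MB replicate 2 on this scale. mt-Nd6, the one mRNA encoded on the minus strand, was at 205, 244 and 218 CPM in GAS, 170 and 181 CPM in MT, 19.4 and 107 CPM in MB, and 20.9 and 70.6 CPM in lactate-treated MB. It was the scarcest mRNA of GAS, yet per kb it reached 0.344 to 0.791 of mt-Nd5 in culture against 0.105 to 0.149 in GAS. Whether reads were counted by strand is not given in the sources used here, so that reads of mt-Nd6 cannot be told apart from those of RNA transcribed across it from the other strand.

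The remaining complex I mRNAs, mt-Nd3 and mt-Nd4l, lie in the copied stretch. mt-Nd3 had 22354, 22358 and 22356 counts in GAS, 21 and 8 in MT, 28 and 16 in MB, and 23 and 10 in lactate-treated MB. mt-Nd4l had 11 and 34 counts in MT, 1 and 14 in MB, and 0 and 8 in lactate-treated MB, where the count of 0 allows up to 0.405 CPM, covering counting error only.

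Complex III, which passes electrons from ubiquinol to cytochrome c, has the single mitochondrial subunit mt-Cytb. It was at 12164, 12485 and 12498 CPM in GAS, 5440 and 4789 CPM in MT, 425 and 4546 CPM in MB, and 424 and 3225 CPM in lactate-treated MB. Both MT values were above both MB values, the replicate 2 libraries being the closest. mt-Cytb held 12.2%, 12.2% and 11.97% of mitochondrial mRNA counts in GAS, 40.2% and 27.0% in MT, 16.6% and 30.7% in MB and 17.3% and 29.7% in lactate-treated MB. Relative to mt-Nd1, at the other end of the mRNA genes, its density per kb was 0.899 to 0.933 in GAS, 2.16 and 0.919 in MT, 0.423 and 0.782 in MB, and 0.362 and 0.739 in lactate-treated MB. MT and MB did not overlap in this ratio, whose mean log2 value was 1.29 higher in MT, with an exact permutation p of 0.333, the smallest that 2 against 2 libraries can give.

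Complex IV, cytochrome c oxidase, is built around mt-Co1, which holds its catalytic centre. mt-Co1 was at 31667, 33595 and 32676 CPM in GAS, 3833 and 4740 CPM in MT, 803 and 3387 CPM in MB, and 685 and 2582 CPM in lactate-treated MB. It was the densest mRNA per kb of GAS, at 1.74 to 1.86 times mt-Nd1, whereas in culture that ratio was 0.431 to 1.13. The other catalytic-core subunits, mt-Co2 and mt-Co3, belong to the copied stretch. mt-Co2 had 130988, 134130 and 131656 counts in GAS, 76 and 69 in MT, 19 and 54 in MB, and 31 and 32 in lactate-treated MB. mt-Co3 had 129997, 128678 and 126512 counts in GAS, 71 and 31 in MT, 12 and 24 in MB, and 12 and 11 in lactate-treated MB.

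Complex V, the ATP synthase, takes mt-Atp6 and mt-Atp8 from the mitochondrial genome, and both lie in the copied stretch. mt-Atp6 had 122240, 120320 and 123453 counts in GAS, 100 and 53 in MT, 18 and 75 in MB, and 35 and 34 in lactate-treated MB. mt-Atp8, the shortest of the mRNAs, had 5438, 5154 and 5128 counts in GAS, 23 and 16 in MT, 1 and 15 in MB, and 2 and 1 in lactate-treated MB. Complex V took 6.33% to 6.42% of mitochondrial mRNA counts in GAS and 0.0495% to 0.203% in culture. The culture share, like all values of the copied stretch there, is uncertain as a level.

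**Figure D3:**
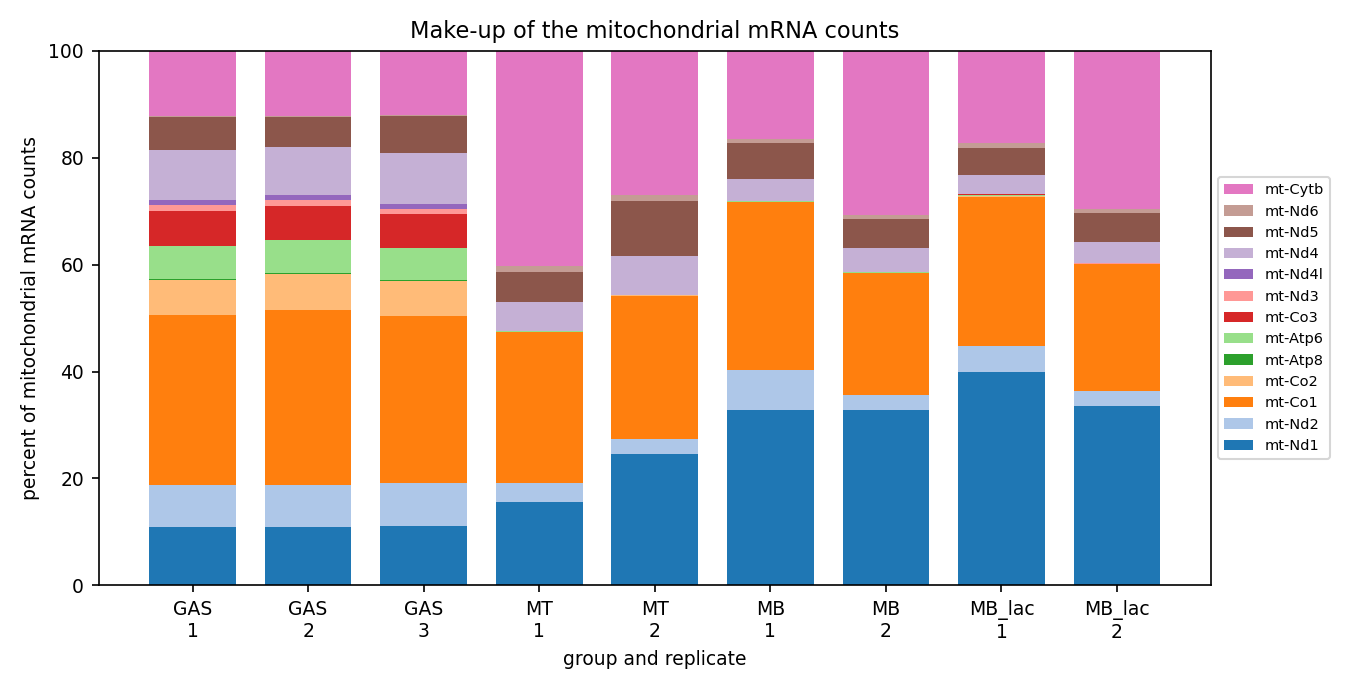
Percent of the summed mitochondrial mRNA counts held by each of the 13 mRNAs, stacked in chromosome order, 1 bar per library. In GAS mt-Co1 holds 31.3% to 32.7%, and the cultured bars consist almost wholly of the 7 mRNAs outside the copied stretch.

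The rRNAs differed from each other in how tissue and culture compared. mt-Rnr1, the small-subunit rRNA, was at 879, 815 and 773 CPM in GAS, 611 and 1378 CPM in MT, 677 and 635 CPM in MB, and 786 and 442 CPM in lactate-treated MB, so that tissue and cultures overlapped. mt-Rnr2, the large-subunit rRNA, was at 1124, 1087 and 1024 CPM in GAS, 4574 and 22605 CPM in MT, 8553 and 15684 CPM in MB, and 18236 and 13371 CPM in lactate-treated MB. Per kb, mt-Rnr2 had 0.772 to 0.805 of the mt-Rnr1 counts in GAS but 4.52 to 18.3 times as many in culture. The MB values of this ratio (7.63 and 14.9) overlapped in range with those of MT (4.52 and 9.91) and of lactate-treated MB (14.0 and 18.3).

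Most tRNA genes had hardly any counts, and 10 of the 22 had at most 10 in every library. mt-Tk was at 0 in all 9 libraries, which allows at most 0.150 to 0.577 CPM per library. The 6 with the highest mean count per kb were mt-Ts1, mt-Tq, mt-Tp, mt-Tw, mt-Tl1 and mt-Te, of which 4 are on the minus strand, and the 8 minus-strand tRNA genes took 76.1% to 92.3% of tRNA counts. The leading pair is shown because mt-Ts1 had the most tRNA counts in GAS and mt-Tq in culture, each sequence read on the minus strand.
mt-Ts1, chrM:6870-6938: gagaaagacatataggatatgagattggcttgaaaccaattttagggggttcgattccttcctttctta
mt-Tq, chrM:3772-3842: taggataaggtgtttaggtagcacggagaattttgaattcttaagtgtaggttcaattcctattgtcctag

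mt-Ts1, a serine tRNA next to mt-Co1 and within the copied stretch, had 490, 656 and 446 counts in GAS, 3 and 0 in MT, 0 and 2 in MB, and 0 and 1 in lactate-treated MB. mt-Tq, the glutamine tRNA between mt-Nd1 and mt-Nd2, had 62, 66 and 42 counts in GAS, 421 and 223 in MT, 65 and 141 in MB, and 226 and 51 in lactate-treated MB. mt-Tq was thus the leading tRNA gene in all 6 cultured libraries and mt-Ts1 in all 3 of GAS. mt-Tw, the tryptophan tRNA, had 123, 181 and 97 counts in GAS and at most 2 in any culture. mt-Tp, the proline tRNA, had 65 to 90 counts in GAS and 41 to 187 in culture, mt-Tl1 40 to 51 and 1 to 16, and mt-Te 39 to 55 and 0 to 7. Reads over these genes can also come from the uncut precursor of either strand.

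The question of whether mitochondrial transcripts change with differentiation was put to the fit over all genes. By edgeR's quasi-likelihood test, 2312 of 12921 genes (17.9%) were called between MT and MB at an adjusted p under 0.05 and an absolute log2 fold change over 0.5, 1425 (11%) higher and 887 (6.86%) lower in MT. Of the 37 mitochondrial genes, 22 had enough counts to be tested, and none was among the calls, that is 0 of 13 mRNAs, 0 of 2 rRNAs and 0 of 7 tRNAs. At an unadjusted edgeR p under 0.05 there were 2 of the 22, mt-Tq and mt-Nd6, against 4197 of all 12921 genes tested. DESeq2 also called 0, with 4 of the 22 under that limit, against 4303 of all 12921. Groups did not overlap for 10 of the 22, against 62.3% of all genes tested. Leaving out 1 library at a time moved the fitted values widely, where a lone library was assumed to vary like the other group. The log2 fold change ran from 0.065 to 3.14 for mt-Cytb, from 0.62 to 2.74 for mt-Nd6 and from 0.77 to 1.75 for mt-Tq. Those of mt-Rnr1, mt-Rnr2, mt-Nd1, mt-Atp6 and mt-Nd4l changed sign. The fibroblast markers summed to 16764 and 1876 CPM in MT and to 2.34 and 2.32 CPM in MB, and their part in the differences between MT and MB was not tested.

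The estimates were mostly above 0 but their errors were wide. Of the 13 mRNAs, 12 had a positive log2 fold change, with a median of 0.99 against 0.07 over all genes tested and standard errors of 0.48 to 1.16. The highest among the mRNAs outside the copied stretch were mt-Nd6 at 1.43 ± 0.61 (SE, edgeR adjusted p = 0.130), mt-Nd5 at 1.39 ± 0.72 (adjusted p = 0.209) and mt-Nd4 at 1.34 ± 0.73 (adjusted p = 0.230). They were followed by mt-Cytb at 1.02, mt-Co1 at 0.98, mt-Nd2 at 0.60 and mt-Nd1 at 0.17. The median of these 7 was 1.02, and it was 0.26 without MB replicate 1 and 2.53 without MB replicate 2. In the stretch the values ran from -1.04 for mt-Nd3 to 1.47 ± 1.16 for mt-Nd4l. The rRNAs had log2 fold changes of 0.44 (mt-Rnr1) and 0.09 (mt-Rnr2), and the tRNAs ranged from -0.09 (mt-Tl1) to 1.29 ± 0.54 (mt-Tq, edgeR adjusted p = 0.123).

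Lactate treatment gave no call in any mitochondrial gene. At a nominal p under 0.01 and an absolute log2 fold change over 0.5, edgeR called 0 of 11804 genes (0%), of which 5 were under an unadjusted p of 0.05, and DESeq2 called 1 gene with 3 under that limit. All 20 mitochondrial genes tested had an adjusted p of 1.00, none was under 0.05 unadjusted, and mt-Atp8 did not pass the filter. The smallest p among them was 0.285, and groups did not overlap in 0 of the 20, against 11.8% of all genes. The 7 mRNAs outside the copied stretch had log2 fold changes between -0.58 and -0.26 with standard errors of 0.50 to 1.16, and the lowest was that of mt-Nd4 at -0.58 ± 0.93. Inside the stretch they were between -0.36 (mt-Nd4l) and 0.30 (mt-Co2), and the rRNAs were at 0.05 (mt-Rnr1) and 0.54 ± 0.66 (mt-Rnr2). With 2 libraries per group, differences as large as these errors, or larger, could have gone uncalled.

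**Figure D4:**
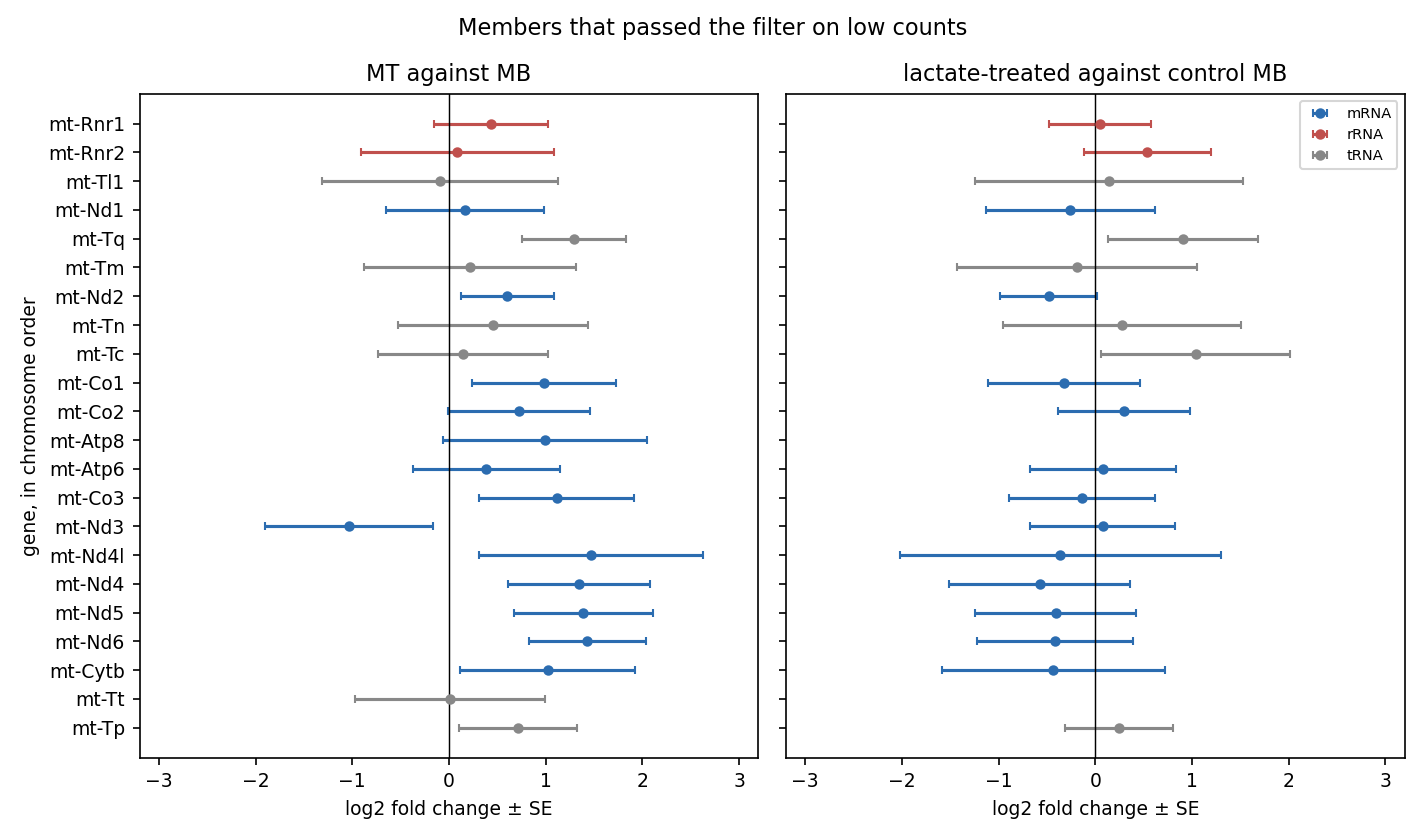
Log2 fold changes with standard errors from edgeR, for the mitochondrial genes with enough counts to be tested, in chromosome order, MT against MB on the left and lactate-treated against control MB on the right. Values for MT lie mostly above 0, between -1.04 and 1.47, and those for lactate between -0.58 and 1.04, with none called in either.

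Nuclear genes that serve mitochondrial transcription, replication and RNA processing were examined alongside. Of 62 such genes, 62 were tested between MT and MB, of which 0 rose and 3 fell, that is 4.84% against 17.9% of all genes, with a median log2 fold change of -0.42 against 0.07. The genes that fell were Pprc1, a coactivator of the PGC-1 family, with a log2 fold change of -2.30 ± 0.46 (edgeR adjusted p = 0.00778), Tbrg4, a FASTK-family protein of mitochondrial RNA metabolism, with -2.23 ± 0.47 (adjusted p = 0.00904), and Pus1, a pseudouridine synthase of tRNAs, with -1.52 ± 0.47 (adjusted p = 0.0476). TMM-scaled CPM of Pprc1 were 202 and 161 in MB and 27.6 and 46.3 in MT. None of these calls held without MT replicate 1, where adjusted p was 0.132 for Pprc1, 0.0766 for Tbrg4 and 0.417 for Pus1, and the call of Pus1 was also lost without MT replicate 2 (0.0783) with at least 10 counts required in every library (0.0667) and, with MT and MB libraries alone, in the fits that used the replicate number.

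The core factors did not pass the test. Polrmt, the mitochondrial RNA polymerase, had a log2 fold change of -1.34 ± 0.48 (edgeR adjusted p = 0.0789), with TMM-scaled CPM of 116 and 77.2 in MB and 27.1 and 49.3 in MT. Tfam, which packages mitochondrial DNA and starts its transcription, was at -0.83 ± 0.46, the initiation factor Tfb2m at 0.08 and the elongation factor Tefm at 0.32. The DNA polymerase Polg and the helicase Twnk were at -0.94 and -0.60. Among RNA-stability factors Lrpprc was at -0.71, its partner Slirp at 0.21 and the poly(A) polymerase Mtpap at -0.53, and the coactivator Ppargc1a was at 0.36 ± 0.64. With lactate, 61 of these genes were tested and 0 were called, with log2 fold changes between -0.48 and 0.55.

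Among nuclear subunits of the respiratory complexes, the genes that rose included muscle isoforms of complex IV. Of 79 tested between MT and MB, 4 rose and 0 fell (5.06%, against 17.9% of all genes called and 11% called higher), with a median log2 fold change of 0.03. Of complex IV subunits, 3 of 14 rose (21.4%): Cox8b by 9.35 ± 0.84 (edgeR adjusted p = 0.000119), Cox6a2 by 8.17 ± 0.76 (adjusted p = 0.000142) and Cox7a1 by 5.14 ± 0.76 (adjusted p = 0.00158), all heart and skeletal muscle isoforms. Cox8b had 1 and 3 counts in MB and 1103 and 2032 in MT, Cox6a2 11 and 4 against 2152 and 3084, and Cox7a1 10 and 3 against 434 and 194, so that the size of these fitted changes depends on a handful of MB counts. With so few MB counts, these 3 passed the filter on low counts only through MT, where they were high. In the lactate comparison, which had no MT libraries, 11 complex IV subunits were tested. The 3 calls among 14 subunits are therefore no support for a rise of complex IV as a whole. Cox6a2 and Cox7a1 are named here after their values were seen. In complex I Ndufv3 rose by 1.86 ± 0.43 (edgeR adjusted p = 0.0145), with TMM-scaled CPM of 72.4 and 58.7 in MB and 239 and 237 in MT, a call lost without either MT library or MB replicate 2. No gene of complexes II, III and V was called, out of 4, 9 and 16 tested. With lactate, 76 were tested and 0 called, with log2 fold changes between -0.24 and 0.45.

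**Figure D5:**
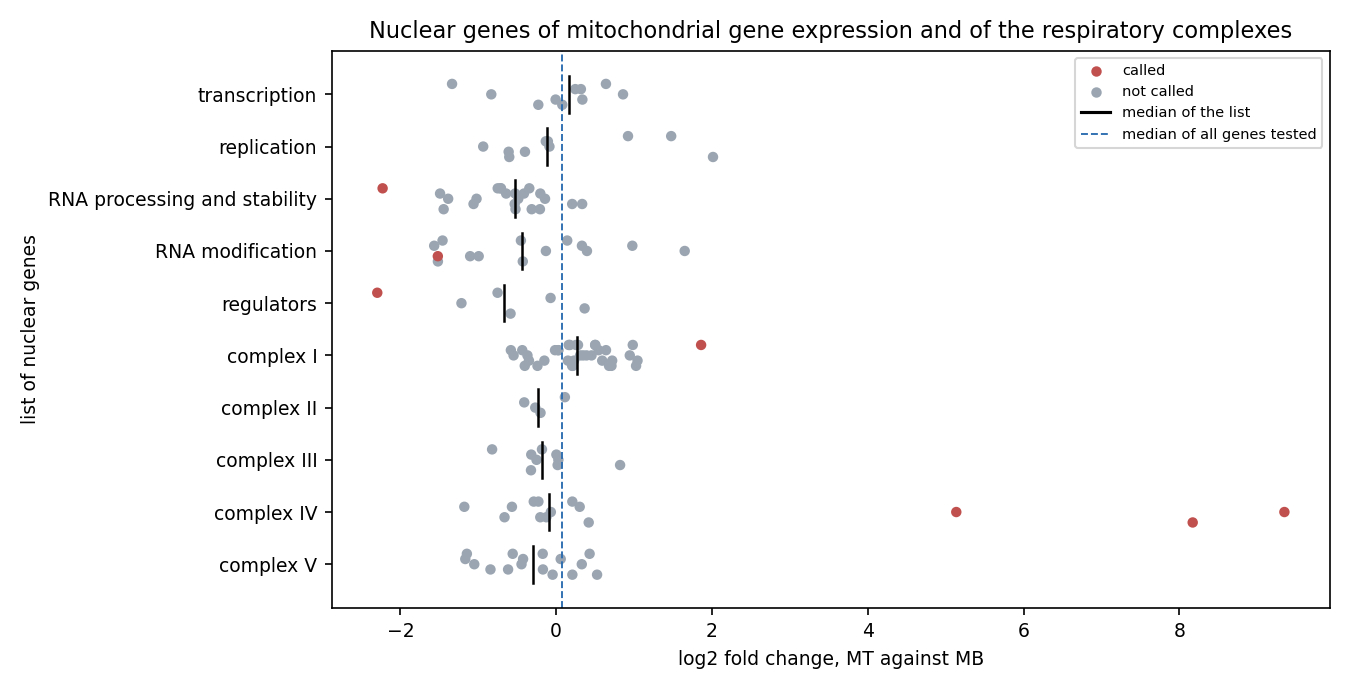
Log2 fold change between MT and MB of nuclear genes of mitochondrial gene expression and of respiratory complexes, by list, with 1 point per gene, called genes in red, a bar at each list's median and a dashed line at the median of all genes tested (0.07). The red points are 3 genes that fell in the upper lists and 4 that rose in complexes I and IV.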

How the data were processed

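RNA-seq of 9 libraries was used (GAS 3, MT 2, MB 2 and lactate-treated MB 2). The deposited files hold raw read counts per Ensembl gene and library, which the authors made by trimming reads (Trim Galore 0.6.6), aligning them to mm10 (HISAT2 2.2.1) and counting (Subread 2.0.1), per the submitters' processing notes. The annotation release, the strand setting and the treatment of multi-mapping reads are not given in the sources used here. Symbols and coordinates came from GENCODE M21 (GRCm38), and nuclear copies were found with BLAST 2.17.0 among its transcripts (at least 90% identity over 100 bases; near-identical at 98%).

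Shares are percent of a library's counts, CPM are counts scaled by the library total, and counts per kb use the gene's length. The contrasts MT against MB and treated against untreated MB were fitted in R 4.3.3 with edgeR 4.0.16 (filterByExpr, TMM, quasi-likelihood test, Benjamini-Hochberg over all genes tested). The fit was checked on simulated counts with less spread than these libraries and larger changes than those of the mitochondrial genes. That check does not measure sensitivity in these data. Shares were compared by two-sided exact permutation tests. GAS was not tested against cultured cells. Alternatives were RLE factors, DESeq2 1.42.0, other filters, other denominators, added pseudogene counts, a replicate block, all 6 cultured libraries and leaving out each library.

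The members, gene lists and the bounds of the copied stretch were chosen with earlier results of these data known, and the stretch after its values were seen. All mRNAs and rRNAs are named, tRNAs by mean count per kb, 10 core factors always, and further list genes by size of change among those called. Replicate p-values measure the spread between these libraries, and intervals and floors cover counting error only.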

Additional observations from a re-analysis of the deposited data

How the results depend on the processing

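The counts of the 6 mRNAs of the copied stretch are too low in culture for firm levels, since they rest on 79 to 302 counts per library, and with 2 libraries per group no exact test on shares could reach 0.05. Between MT and MB, 2312 genes were called, against 3021 with DESeq2, 1444 with at least 10 counts in every library, 1232 without MT replicate 1 and 4921 without MT replicate 2, so that leaving out 1 library gave 1232 to 4921. In the lactate comparison the count of nominal calls was 1 with DESeq2, 1 with no filter on low counts, and 1 to 177 without a library (19 without MB replicate 1 and 177 without MB replicate 2). The mitochondrial genes called remained at 0 in the lactate comparison under every alternative run, and between MT and MB leaving out a library gave 0 to 5.

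The replicate numbers were shared by the groups but paired nothing in the labels: deviations of libraries with the same number correlated at -0.13 between MT and MB and at 0.70 between lactate-treated and control MB. With a replicate block, 2271 genes and 1 mitochondrial gene (mt-Nd6, log2 fold change 1.76, edgeR adjusted p = 0.0309) were called between MT and MB, and 13 genes were called with lactate. With all 6 cultured libraries and the replicate block, 2444 genes and 2 mitochondrial genes (mt-Nd4 and mt-Nd6) were called between MT and MB, and 2 genes with lactate. A block with the numbers crossed, added after the data were seen, gave 2059 genes and 0 mitochondrial genes. The call of Pus1 was lost with the replicate block (edgeR adjusted p = 0.0660) and with crossed numbers (0.0557). The log2 fold change of mt-Rnr2 in MT turned to -0.36 with the block, -0.076 with all 6 libraries and the block, and -0.36 with crossed numbers, and that of mt-Rnr1 with lactate to -0.074 with the block. With lactate, mt-Atp6 turned to -0.052 when the counts of its nuclear copies were added.

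The share of mRNA counts on the copied stretch depended on the scale without closing the gap. Per kb it was 36.0% in GAS, 0.418% in MT, 0.598% in MB and 0.765% in lactate-treated MB, and with copies added it was 22.5%, 0.370% and 0.429% in GAS, MT and MB. The cause of the reversals was not tested.

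Leaving out each library in turn, the difference between MT and MB in the rRNA share was -1.24 to 0.97 on the log2 scale, that with lactate -1.52 to 1.01 for mRNA and -0.0097 to 0.81 for rRNA, and the median of the 7 mRNAs outside the stretch 0.26 to 2.53 in MT and -1.26 to 1.11 with lactate. In MT the log2 fold change was -0.55 to 0.96 for mt-Rnr1, -1.79 to 0.86 for mt-Rnr2, -0.73 to 1.55 for mt-Nd1, -0.39 to 1.52 for mt-Atp6, -0.19 to 4.09 for mt-Nd4l, -0.38 to 0.43 for Tfb2m, -0.073 to 0.57 for Tefm, -0.32 to 0.68 for Slirp and -0.30 to 1.18 for Ppargc1a. With lactate it was -0.70 to 0.54 for mt-Rnr1, -1.18 to 1.32 for mt-Nd1, -0.44 to 1.60 for mt-Tq, -1.26 to 0.89 for mt-Co1, -0.18 to 1.23 for mt-Co2, -0.52 to 1.43 for mt-Atp6, -0.46 to 0.44 for mt-Co3, -0.57 to 0.64 for mt-Nd3, -5.79 to 0.66 for mt-Nd4l, -1.85 to 1.18 for mt-Nd4, -1.59 to 0.92 for mt-Nd5, -1.23 to 1.11 for mt-Nd6, -2.17 to 1.92 for mt-Cytb and -0.032 to 0.74 for mt-Tp. Where a group was left with 1 library, that library was assumed to vary like the other group.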
